A study of Mus musculus with 10 samples.

Results

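Brown and white adipocyte genes were examined in hearts of 1 week old male mice that lacked Ft1 (gene name Aktip), by the deposited tables of RNA sequencing. The set held 9 genes, namely Ucp1, Cidea, Elovl3, Plin1, Cidec, Adipoq, Cfd, Retn and Pck1, of the 17575 genes listed in the 3 tables. They were taken by symbol, and were chosen by their role in fat cells with earlier results of these same hearts in view, in which fat genes had stood higher in Ft1ko than in WT. Their group levels are therefore a description and no test was made of them. The hearts came from 3 Ft1ko, 4 Ft1sm22ko and 3 WT animals. Ft1ko mice carried the Ft1 allele after its floxed form was recombined by CMV-cre, which acts in the whole body. Ft1sm22ko mice carried floxed Ft1 with the sm22-cre transgene Tg(Tagln-cre)1Zli, which acts where sm22 (Tagln) is on, in smooth muscle and in the heart during development, so that Ft1 is removed from only some of the cells of the organ. WT mice kept Ft1.

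Brown adipocytes burn fat for heat. Their mitochondria hold Ucp1, which lets protons back across the inner membrane without making ATP, and they store fat in many small droplets. White adipocytes hold 1 large droplet, coated by Plin1, and secrete proteins such as Adipoq (adiponectin). Mouse hearts are bordered by fat around the great vessels and in the mediastinum, and in young mice much of the fat in the chest has brown character. In bulk tissue, more fat cells in the sample and more RNA of a gene per fat cell cannot be told apart.

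Each table gave, for every gene, 1 pooled mean of normalized counts over the hearts of both groups in a pair. The authors' fold changes and p-values were not used, and values of single hearts were not analysed here. With 3 pairs and 3 groups, the 3 pooled means of a gene could be solved for its mean in each group, once the tables had been set to 1 scale. These means are called worked out levels, in normalized counts on the scale of the table of Ft1ko and WT. A range beside a level or a fold gives its lowest and highest value over 4 ways of setting that scale, and is not an error between hearts, which the pooled means do not hold. A high level may rest on 1 heart of a group. A fold is a ratio of levels after 1 count was added to each. Where the WT level is at or near 0, the count added sets much of the fold, so each fold over WT is also given with 10 counts added, a setting chosen after seeing the data. A worked out level can come out below 0, and was then set to 0. Among 9773 genes with a pooled mean of at least 100 in every table this happened for WT in 14, the lowest reaching -10.9% of the pooled mean, so that small WT levels could not be told from 0. It happened for WT in 339 of the 15230 genes with a pooled mean of at least 10 in 1 table or more, Cidec and Cfd among them, and in Retn, whose means were lower. The depth of the libraries is unknown from these values, and levels were compared between groups and not between genes, since they are not set per length.

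Aktip stood at 186.6 (range 161.3 to 224.2) in Ft1ko, at 286.9 (283.3 to 296.3) in Ft1sm22ko and at 651.9 (614.3 to 677.2) in WT, or 0.287 and 0.441 of WT in Ft1ko and Ft1sm22ko. A mean over the whole gene does not show the deleted part. In the list of ventricular markers, 7 of 8 genes also stood 2-fold or more lower in Ft1ko than in WT (median log2 ratio -2.25, and -1.02 in Ft1sm22ko). This list held Myh6, Tnnt2, Tnni3 and Actc1 too, which atrial muscle also expresses, so its values are not of the ventricle alone. Markers of other tissues differed between the groups as well. All 8 lung epithelium markers stood 2-fold or more higher in Ft1ko than in WT, with summed levels of 49432 in Ft1ko, 3345 in Ft1sm22ko and 197.9 in WT, and 7 of the 8 were at 0 in WT. The 8 thymocyte markers in all tables summed to 5592 in Ft1ko, 162.8 in Ft1sm22ko and 51.5 in WT, with 3 at 0 in WT. The 6 atrial markers summed to 55060 in Ft1ko and 53942 in Ft1sm22ko, and all 6 were at 0 in WT. These values of 0 hold on the main scale. Over the 4 scales the WT level reached up to 1123 for Nppa and 136.8 for the lung marker Scgb1a1, so absence from WT is not shown. The summed level of the 8 genes of the ventricular list was highest in WT (282021 in Ft1ko, 576942 in Ft1sm22ko, 1292536.5 in WT). Of the WT sum, 664646 was Myh6. Myh7 of the same list was lowest in WT, at 537.8, with 1641 in Ft1ko and 3145 in Ft1sm22ko. The paper reports the opposite direction for Myh7, lower in Ft1ko by RNA sequencing and by Q-PCR. The reason for this difference was not tested. Whether tissue taken along with the heart had a part in the adipocyte levels was not tested.

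Of the 9 adipocyte genes, 8 were listed in all 3 tables and 7 passed the filter on low values, a pooled mean of at least 10 in 1 table or more. Retn did not pass the filter, and Elovl3 had no row in the table of Ft1sm22ko and WT. Of the 7, 6 stood 2-fold or more higher in Ft1ko than in WT (Ucp1, Adipoq, Plin1, Cidec, Cfd and Pck1), where 26.7% of all 15230 genes did. The same 6 stood 2-fold or more higher in Ft1sm22ko than in WT, beside 19.7% of all genes. In 5 of the 7 (Ucp1, Adipoq, Plin1, Cidec and Pck1) the level was 2-fold or more lower in Ft1sm22ko than in Ft1ko, beside 12.5% of all genes. The set was chosen with such differences known, so nothing is read from these shares. The median log2 ratio of the 7 was 5.998 for Ft1ko over WT (4.45 to 7.99 over the scales, 3.97 with 10 counts added), against 0.21 for all genes. For Ft1sm22ko over WT it was 4.81 (3.25 to 6.57, and 2.77 with 10 counts added), against 0.14. For Ft1sm22ko over Ft1ko it was -1.44 (-1.45 to -1.40, and -1.30 with 10 counts added), against -0.07 for all genes.

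**Figure D1:**
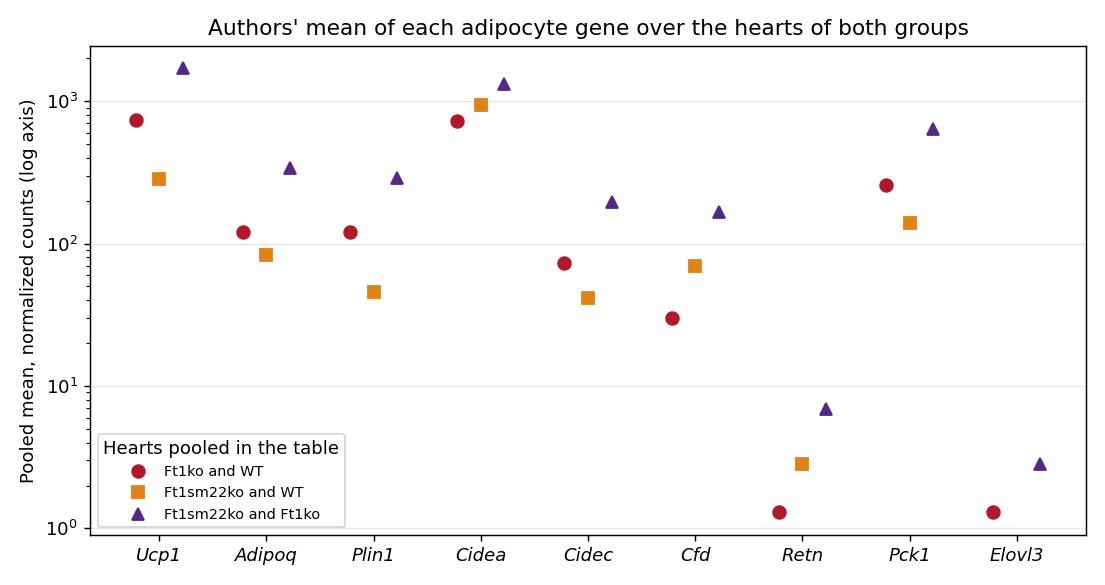
The authors' pooled mean of each adipocyte gene in each of the 3 tables, in normalized counts on a log axis, as deposited. Every point is 1 mean over the hearts of both groups named in the legend; the tables were normalized separately, so heights are not to be compared between symbols before rescaling, and Elovl3 has 2 points because 1 table does not list it.

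The promoters of the members that stood apart are shown because these genes were high in the same groups. RefSeq's table for GRCm38.p6 held a start for 7 of the 9 members. The 250 bases before the start are printed for 4 of them, 1 for each role in the results that follow, with matches to 5 short motifs in capitals. The motifs, searched on both strands, were AGGTCA (a site of many nuclear receptors, PPARs among them), TGACGTCA and TTACGTCA (forms of the cAMP response element), TTGCNNAA (the core bound by C/EBP factors) and CCAAT.
Ucp1 promoter (chr8:83290098-83290347, forward strand): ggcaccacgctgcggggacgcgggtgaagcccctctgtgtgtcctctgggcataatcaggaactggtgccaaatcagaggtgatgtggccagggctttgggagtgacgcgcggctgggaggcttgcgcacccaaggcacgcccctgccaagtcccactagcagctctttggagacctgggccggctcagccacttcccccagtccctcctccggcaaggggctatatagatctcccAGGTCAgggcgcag
Plin1 promoter (chr7:79732777-79733026, reverse strand): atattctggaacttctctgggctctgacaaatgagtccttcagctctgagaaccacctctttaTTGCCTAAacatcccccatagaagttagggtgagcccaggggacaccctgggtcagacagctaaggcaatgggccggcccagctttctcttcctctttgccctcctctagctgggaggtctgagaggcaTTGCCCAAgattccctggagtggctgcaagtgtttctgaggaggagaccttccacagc
Adipoq promoter (chr16:23146286-23146535, forward strand): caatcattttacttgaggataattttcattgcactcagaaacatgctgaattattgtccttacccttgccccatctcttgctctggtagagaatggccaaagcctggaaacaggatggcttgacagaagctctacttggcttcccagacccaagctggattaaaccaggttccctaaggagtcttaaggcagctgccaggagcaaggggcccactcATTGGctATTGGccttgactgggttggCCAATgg
Pck1 promoter (chr2:173152823-173153072, forward strand): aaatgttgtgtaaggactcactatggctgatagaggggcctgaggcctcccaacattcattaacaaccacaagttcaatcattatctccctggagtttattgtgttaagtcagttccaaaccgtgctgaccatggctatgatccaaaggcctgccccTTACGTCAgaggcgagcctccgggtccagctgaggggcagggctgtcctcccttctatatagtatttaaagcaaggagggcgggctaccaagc
In the Ucp1 promoter AGGTCA began 14 bases before the start, a motif that 14% of all 32851 promoters of this length hold. In the Plin1 promoter TTGCNNAA began 187 and 58 bases before the start (9.56% of all promoters hold it). The Adipoq promoter held CCAAT at 34, 27 and 7 bases before the start, the first pair on the opposite strand (33.8% of all promoters). The Pck1 promoter held TTACGTCA 93 bases before the start (0.447% of all promoters), and TGACGTCA, in 1.55% of all promoters, was in none of the 4. No match overlapped another. A match is a run of letters and not a site shown to be bound.

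The thermogenic genes did not share 1 pattern. Ucp1, the uncoupling protein that defines the brown adipocyte, had pooled means of 737.4 over Ft1ko and WT hearts, 283.2 over Ft1sm22ko and WT hearts and 1705 over Ft1sm22ko and Ft1ko hearts, each on its own table's scale. Its worked out level was 1437 (1407 to 1510) in Ft1ko, 335.3 (326.0 to 377.2) in Ft1sm22ko and 37.7 (0 to 67.9) in WT. The Ft1ko ranges lay above the Ft1sm22ko ranges, and both above WT. The level in Ft1ko was 37.2-fold that in WT (20.4 to 1511 over the scales, 30.3 with 10 counts added), and that in Ft1sm22ko was 8.69-fold that in WT (4.75 to 378.2, and 7.24 with 10 counts added). Ft1ko exceeded Ft1sm22ko by 4.28-fold (3.995 to 4.32). Because no group mean can lie below 0, the first 2 tables alone hold the WT mean of Ucp1 to at most 484.8 and the Ft1ko mean to at least 989.9 on the main scale, a ratio of at least 2.04 with no count added, and the ratio of Ft1ko to Ft1sm22ko to at least 4.06. For Plin1 the same limit on Ft1ko over WT was 2.10. For the other 4 genes past 2-fold it did not reach 2, being 1.16 for Pck1, 1.06 for Cidec, 0.70 for Adipoq and 0 for Cfd. Those folds over WT thus rest on the third table as well. All these limits were worked out on the main scale only, and those of Ucp1 and Plin1 lie so close to 2 that another scale may put them below it.

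Cidea, a droplet protein that is abundant in brown fat, had another pattern. Its pooled means were 722.3 over Ft1ko and WT hearts, 942.9 over Ft1sm22ko and WT hearts and 1309 over Ft1sm22ko and Ft1ko hearts. The worked out level was 638.7 (592.8 to 716.4) in Ft1ko, 606.4 (599.9 to 622.1) in Ft1sm22ko and 805.9 (728.1 to 851.7) in WT. The WT range lay just above that of Ft1ko, and the ranges of both mutants overlapped. The log2 ratios were -0.34 for Ft1ko over WT and -0.41 for Ft1sm22ko over WT, short of 2-fold under every scale tried. Cidea was thus the single gene of the 7 that passed neither threshold against WT, and the only 1 whose WT range did not reach 0.

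Elovl3, a fatty acid elongase that brown fat makes in the cold, was near the lower edge of the tables. Its pooled mean was 1.29 over Ft1ko and WT hearts and 2.81 over Ft1sm22ko and Ft1ko hearts, and no group level could be worked out. The tables list only genes above a minimum (their lowest means were 0.749, 0.617 and 0.989), so the missing row is no value of 0.

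Plin1 and Cidec had WT levels at or near 0, unlike Cidea. Plin1, which coats the droplet and controls access of lipases to it, had pooled means of 120.7 over Ft1ko and WT hearts, 45.4 over Ft1sm22ko and WT hearts and 288.8 over Ft1sm22ko and Ft1ko hearts. Its worked out level was 241.4 (236.4 to 253.7) in Ft1ko, 58.3 (56.7 to 65.5) in Ft1sm22ko and 0.044 (0 to 5.08) in WT. Nearly the whole of the pooled mean with WT thus fell to the mutants. The Ft1ko level was 4.09-fold that of Ft1sm22ko (3.83 to 4.13), close to the value for Ucp1. On the main scale the folds over WT with 1 count added were 232.2 for Ft1ko and 56.8 for Ft1sm22ko. With 10 counts added they were 25.0 and 6.80, and the lowest over the scales with 1 count added were 39.0 and 9.48.

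Cidec, which fuses droplets into larger ones and is most abundant in white fat, had pooled means of 73.2 over Ft1ko and WT hearts, 41.6 over Ft1sm22ko and WT hearts and 196.9 over Ft1sm22ko and Ft1ko hearts. It stood at 146.5 (142.7 to 155.1) in Ft1ko, at 53.4 (52.5 to 58.0) in Ft1sm22ko and at 0 (0 to 3.72) in WT. The groups kept the order seen for Plin1, with a smaller step between the mutants of 2.71-fold (2.65 to 2.73). With 1 count added the folds over WT were 147.5 in Ft1ko and 54.4 in Ft1sm22ko on the main scale. The lowest over the scales were 30.4 and 11.3, and with 10 counts added the main folds were 15.6 and 6.34.

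**Figure D2:**
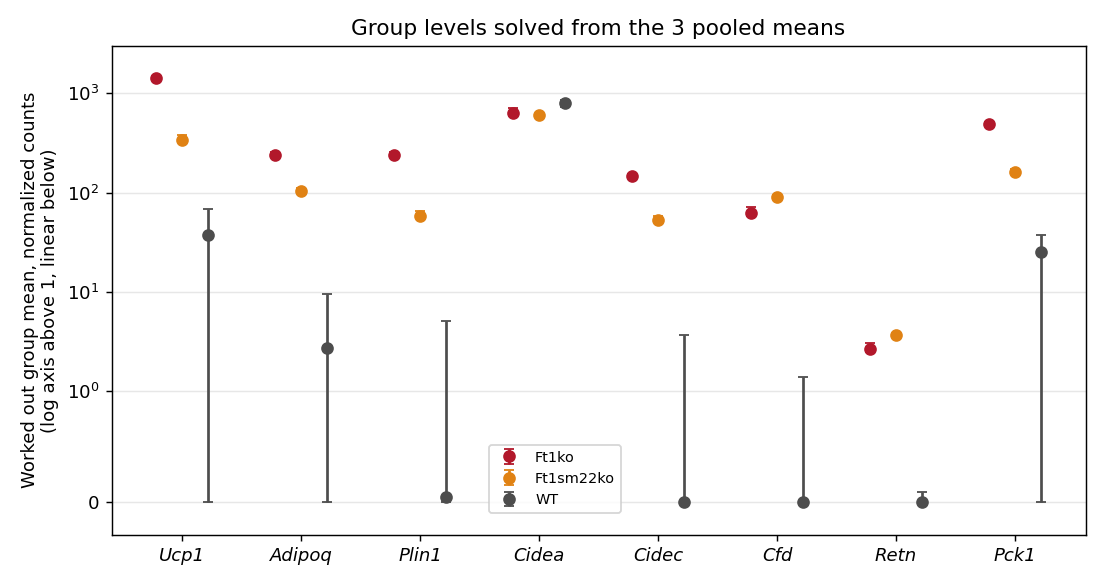
Worked out mean of each adipocyte gene in Ft1ko, Ft1sm22ko and WT hearts, in normalized counts (log axis above 1, linear below, levels under 0 drawn at 0). Points are the main value and bars the range over 4 scales, not an error between hearts. WT points lie lowest for every gene but Cidea, whose 3 points lie between 606.4 and 805.9, and Cfd and Retn are the genes whose Ft1sm22ko point lies above that of Ft1ko.

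The secreted proteins fell into 2 patterns. Adipoq, a hormone released almost only by fat cells, had pooled means of 120.7 over Ft1ko and WT hearts, 82.8 over Ft1sm22ko and WT hearts and 341.7 over Ft1sm22ko and Ft1ko hearts. Its worked out level was 238.6 (231.7 to 254.0) in Ft1ko, 104.3 (103.0 to 112.1) in Ft1sm22ko and 2.75 (0 to 9.62) in WT. The order was again Ft1ko, Ft1sm22ko, WT with no overlap of ranges, and the step between the mutants was 2.28-fold (2.24 to 2.29). With 1 count added the folds over WT were 63.9 in Ft1ko and 28.1 in Ft1sm22ko on the main scale. The lowest over the scales were 21.9 and 9.80, and with 10 counts added the main folds were 19.5 and 8.96.

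Cfd (adipsin, the complement factor D of the alternative pathway) had the opposite order of the mutants. Its pooled means were 30.1 over Ft1ko and WT hearts, 69.0 over Ft1sm22ko and WT hearts and 166.6 over Ft1sm22ko and Ft1ko hearts. The worked out level was 63.0 (58.8 to 71.4) in Ft1ko, 90.8 (90.2 to 94.0) in Ft1sm22ko and 0 (0 to 1.38) in WT. Ft1sm22ko stood 1.43-fold above Ft1ko, which is short of 2-fold, and the lowest folds over WT were 25.1 in Ft1ko and 38.6 in Ft1sm22ko with 1 count added. On the main scale the folds over WT in Ft1ko and Ft1sm22ko were 64.0 and 91.8 with 1 count added. With 10 counts added they fell to 7.30 and 10.1. Retn (resistin), a hormone of white adipocytes in the mouse, had the same order at a few counts. Its pooled means were 1.30, 2.83 and 6.89 in the tables of Ft1ko and WT, Ft1sm22ko and WT, and Ft1sm22ko and Ft1ko. The worked out level was 2.68 (2.51 to 3.03) in Ft1ko, 3.70 (3.67 to 3.83) in Ft1sm22ko and 0 (0 to 0.09) in WT, and at a few counts a heart no weight can be put on the order of the mutants.

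Pck1, which in adipocytes makes the glycerol backbone of stored fat and in liver and kidney serves glucose production, had pooled means of 257.3 over Ft1ko and WT hearts, 139.4 over Ft1sm22ko and WT hearts and 635.6 over Ft1sm22ko and Ft1ko hearts. Its worked out level was 489.2 (476.9 to 517.3) in Ft1ko, 160.0 (157.2 to 174.8) in Ft1sm22ko and 25.3 (0 to 37.6) in WT. Like Ucp1 it had a WT level above 0 on the main scale, with a range that reached 0. The folds over WT were 18.6 in Ft1ko (12.4 to 518.3, and 14.1 with 10 counts added) and 6.12 in Ft1sm22ko (4.10 to 175.8, and 4.81 with 10 counts added). Ft1ko exceeded Ft1sm22ko by 3.05-fold (2.95 to 3.07).

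Between the mutants, the members thus spread from 4.28-fold higher in Ft1ko (Ucp1) to 1.43-fold higher in Ft1sm22ko (Cfd). Ucp1 and Plin1 were near 4-fold, Pck1 and Cidec near 3-fold, and Adipoq near 2-fold. Both comparisons with WT share the same WT hearts, and their values are therefore given side by side and not correlated.

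**Figure D3:**
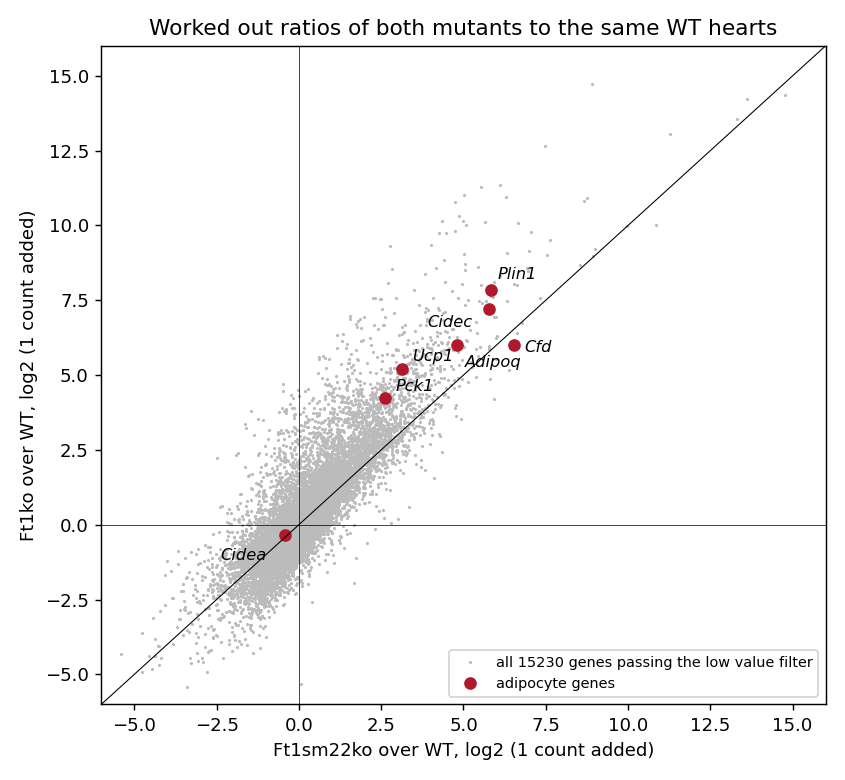
Log2 ratio of worked out levels of Ft1ko over WT (vertical) against Ft1sm22ko over WT (horizontal), with 1 count added, for the 15230 genes that passed the filter on low values (grey) and the 7 adipocyte genes among them (red). The line marks equal ratios; 6 adipocyte genes lie at the upper right, 5 of them above the line and Cfd below it, and Cidea lies next to the origin. Both axes use the same WT hearts.

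Each list of other fat genes held some that stood 2-fold or more lower than WT in each mutant. Of all 15230 genes, 2023 stood so in Ft1ko and 1500 in Ft1sm22ko. The counts of higher genes given below stand beside 26.7% of all genes 2-fold or more higher than WT in Ft1ko and 19.7% in Ft1sm22ko. The secreted and surface list leaned higher, with median log2 ratios over WT of 1.20 in Ft1ko and 0.83 in Ft1sm22ko. Fat synthesis genes leaned less so (0.67 and 0.31), and the lists of transcription factors, thermogenic and droplet genes had negative medians in both mutants. Of 16 adipogenic transcription factors, 3 stood 2-fold or more higher in Ft1ko than in WT and 5 lower, and in Ft1sm22ko 1 was higher and 8 lower. Cebpa, a C/EBP factor of late fat cell differentiation, had 375.7 in Ft1ko, 109.1 in Ft1sm22ko and 52.0 in WT. Zfp516, a factor of brown fat, had 412.9 in Ft1ko, 296.6 in Ft1sm22ko and 180.7 in WT. Ppargc1a, a coactivator of mitochondrial biogenesis in heart and brown fat, had 520.9 in Ft1ko, 890.2 in Ft1sm22ko and 2270 in WT, and the receptor gene Rxrg had 60.0, 222.9 and 617.3 in the same groups. Pparg, the receptor that drives fat cell differentiation and that was picked here after its values were seen, had 87.7 in Ft1ko, 107.9 in Ft1sm22ko and 116.2 in WT.

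Of 18 brown fat and thermogenic genes that passed the filter, 5 stood higher in Ft1ko and 7 lower, and in Ft1sm22ko 2 were higher and 4 lower. Of all genes, 26.7% stood higher in Ft1ko and 19.7% in Ft1sm22ko, so nothing is read from the counts of higher genes in this list. Adrb3, the receptor through which noradrenaline switches on fat cells, had 13.6 in Ft1ko, 3.25 in Ft1sm22ko and 0 (0 to 0.053) in WT. Otop1, a proton channel gene, had 26.3 in Ft1ko, 6.69 in Ft1sm22ko and 3.30 in WT. Cox7a1 and Ucp3, which heart and skeletal muscle also express, lay the other way. Cox7a1 had 762.5 in Ft1ko, 2831 in Ft1sm22ko and 8999 in WT, and Ucp3 had 124.4 in Ft1ko, 917.7 in Ft1sm22ko and 2424 in WT.

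Among 17 genes of the droplet coat and of lipolysis, none stood 2-fold or more higher in Ft1ko than in WT and 8 stood lower, and in Ft1sm22ko 1 was higher and 4 lower. Hilpda, which inhibits the lipase Pnpla2, had 93.8 in Ft1ko, 60.0 in Ft1sm22ko and 47.8 in WT. Cav1, the caveolin of endothelium and adipocytes, had 4574 in Ft1ko, 6732 in Ft1sm22ko and 3338 in WT. The glycerol channel gene Aqp7 had 117.3 in Ft1ko, 295.6 in Ft1sm22ko and 736.4 in WT. Fitm1, a droplet assembly gene of muscle, had 305.4 in Ft1ko, 935.7 in Ft1sm22ko and 1948 in WT.

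Fat synthesis genes were mixed, with 8 of 19 higher in Ft1ko and 4 lower, and 4 higher and 3 lower in Ft1sm22ko. Scd1, the desaturase that makes monounsaturated fatty acids, had 1182 (1158 to 1239) in Ft1ko, 230.4 (222.8 to 263.7) in Ft1sm22ko and 58.8 (1.60 to 82.4) in WT. Its relative Scd2 had 2619 in Ft1ko, 1365 in Ft1sm22ko and 537.6 in WT. Acacb, the acetyl-CoA carboxylase of oxidative tissue, had 733.6 in Ft1ko, 1935 in Ft1sm22ko and 4816 in WT, and Pnpla3 had 19.3, 33.8 and 172.5 in these groups.

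Of 16 adipocyte genes for secreted and surface proteins that passed the filter, 9 stood higher in Ft1ko and 4 lower, and 8 were higher and 2 lower in Ft1sm22ko. Slc7a10, an amino acid transporter of white adipocytes, had 143.5 in Ft1ko, 18.3 in Ft1sm22ko and 0 (0 to 1.04) in WT. Retnla, a resistin-like protein made by fat, lung and macrophages, had 411.7 in Ft1ko, 81.5 in Ft1sm22ko and 6.94 (0 to 14.9) in WT. The glucose transporter gene Slc2a4 had 588.2 in Ft1ko, 1351 in Ft1sm22ko and 3229 in WT, and the lipase gene Lpl had 5916, 15762 and 33148 in the same order, both being genes of heart muscle as well. Fabp4, a fatty acid carrier of adipocytes and capillary endothelium picked after its values were seen, had 7646 in Ft1ko, 13246 in Ft1sm22ko and 15688 in WT.

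**Figure D4:**
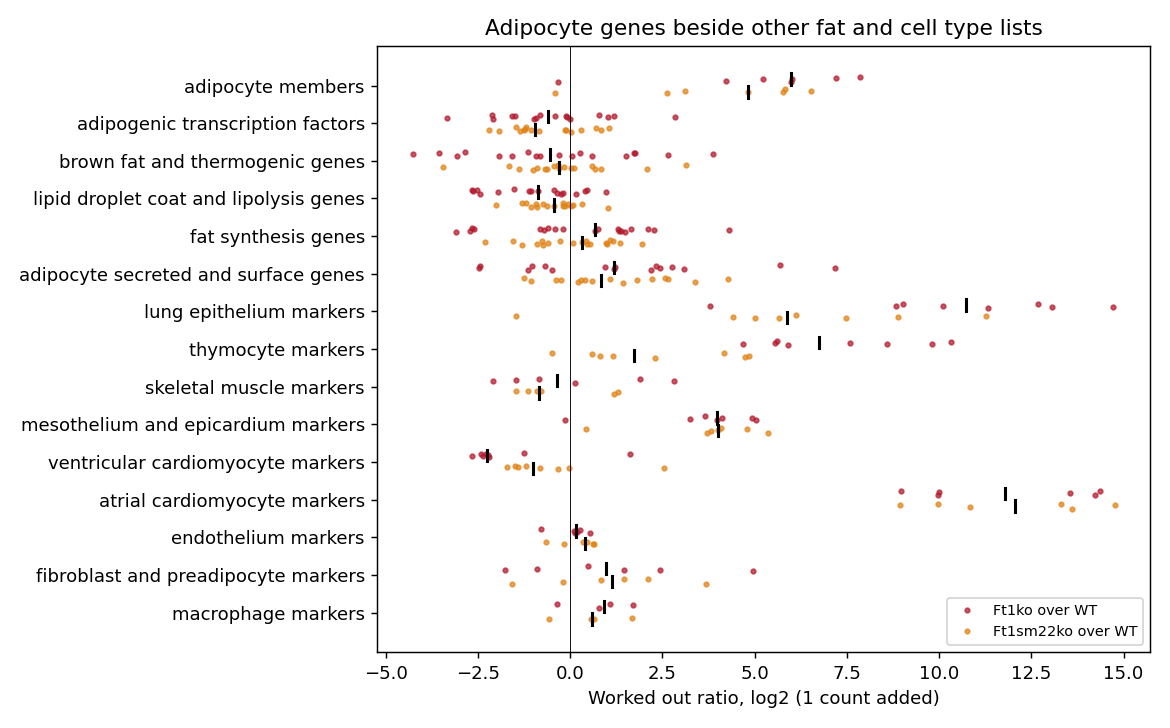
Log2 ratio over WT (1 count added) of each gene that passed the filter on low values, by list, for Ft1ko (red) and Ft1sm22ko (orange). Black ticks mark the list medians. The adipocyte members have medians of 5.998 and 4.81, and the lists of other fat genes lie on both sides of 0. The medians of the lung, atrial, mesothelium and thymocyte lists lie to the right, with single points such as Ager, Cd3d and Wt1 left of 0.

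Beside these lists, markers of tissue around the heart were set next to the adipocyte genes. The lung marker Sftpc, the surfactant protein of alveolar cells, had 26889 in Ft1ko, 475.7 in Ft1sm22ko and 0 (0 to 66.8) in WT, and the airway gene Scgb1a1 had 8588, 2452 and 0 (0 to 136.8) in the same groups. Ager, another lung marker, had 2763 in Ft1ko, 70.8 in Ft1sm22ko and 197.9 in WT. Rag1, the recombinase of thymocytes, had 1288 in Ft1ko, 27.8 in Ft1sm22ko and 0 (0 to 6.32) in WT. The log2 ratio of Ft1sm22ko over Ft1ko had a median of -4.83 over the 8 lung markers and -5.04 over the 8 thymocyte markers, beside -1.44 over the adipocyte genes, -0.01 over the 6 atrial markers and 0.43 over the 7 mesothelium and epicardium markers. By its median the adipocyte set thus lay between the lung and thymus lists and the atrial and mesothelial lists. Single genes of the lists overlapped. The members ran from -2.10 (Ucp1) to 0.52 (Cfd), while Scgb1a1 stood at -1.81 and the mesothelium marker Krt19 at -1.02. Dlk1, a gene of preadipocytes and of fetal tissue, had 697.8 in Ft1ko, 287.5 in Ft1sm22ko and 21.4 (0 to 41.1) in WT. Of 7 mesothelium and epicardium markers, 6 stood 2-fold or more higher than WT in each mutant. Of 6 fibroblast and preadipocyte markers, 3 were higher and 1 lower in each mutant. The lower gene was Ly6a, with 180.1 in Ft1ko, 206.8 in Ft1sm22ko and 620.3 in WT. Of 6 skeletal muscle markers, 2 were higher and 2 lower than WT in each mutant, and of 4 macrophage markers 2 were higher in Ft1ko and 1 in Ft1sm22ko. Among all genes, 26.7% were higher in Ft1ko and 19.7% in Ft1sm22ko, and nothing is read from counts in lists this small. The 6 endothelium markers differed less, with none 2-fold from WT in either mutant and summed levels of 15118 in Ft1ko, 17269 in Ft1sm22ko and 14656 in WT.

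Of the 8 genes outside the set whose pooled means varied over the 3 tables most like the median of the 8 members, those named here were Pard6b, Aldh1a1, Ribc1, Aox3, BC048546, Ccdc103 and Mpzl2. Likeness was the distance between a gene and that median in the log2 ratios of the second and the third table to the first, and ran from 0.0032 to 0.043 over the 8 genes. The members themselves lay at 0.150 (Cidec) to 2.18 (Cfd) from their own median. Aldh1a1, a retinaldehyde dehydrogenase, had 1595 in Ft1ko, 607.3 in Ft1sm22ko and 84.8 (0 to 128.3) in WT.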

How the data were processed

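Total RNA from hearts of 1 week old male mice (3 Ft1ko, 4 Ft1sm22ko, 3 WT) was extracted with TRIzol and sequenced after library preparation with the Universal Plus mRNA-Seq kit. The authors used STAR for alignment to a reference named hg38, a human build name although the symbols are those of mouse, took transcript counts with StringTie and gene counts with HTSeq and fitted each pair of groups with DESeq2 (versions not given in the sources used here). The deposited signal used is the pooled mean of normalized counts over both groups of a pair. The other deposited columns hold the authors' fold change, its error, test statistic and p-values, and were not used. Since a pooled mean holds no spread between hearts, no test was run.

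The tables were set to 1 scale by the median ratio of pooled means over 9773 genes with a mean of at least 100 in every table (1.36 for the table of Ft1sm22ko and WT and 2.11 for that of Ft1sm22ko and Ft1ko), and solved for group means, with Python 3.11.15, NumPy 2.4.6 and pandas 2.3.3. This takes each group to be scaled alike in both of its tables. The alternatives were scales from all genes, from genes with a mean of at least 1000 or with a median worked out ratio of 1, folds of 1.5 and 4, and no filter on low values. Named genes of each fat list were up to 4, the largest and the smallest ratios of Ft1ko over WT. For the cell type lists only some of these were named, mostly from the high end. Of the list genes, 2 were found under an older symbol. The members and lists were chosen with earlier results of these data known. Of the 8 genes nearest in pattern to the members, 1 is not reported here.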

Additional observations from a re-analysis of the deposited data

How the results depend on the processing

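The counts of 6, 6 and 5 adipocyte genes past 2-fold (Ft1ko over WT, Ft1sm22ko over WT, and lower in Ft1sm22ko than in Ft1ko) were the same under all 3 other scales and at a fold of 1.5. At a fold of 4 the first count stayed at 6 and the second at 6, while the third was 2. With no filter on low values Retn joined the first pair of counts, which became 7 each. Chosen after seeing the data were 10 counts added in place of 1, and Ft1sm22ko set 5% higher or lower in 1 of its tables, and neither changed a count. Of 144 log2 ratios of single members under the alternatives, 109 lay within 1.5-fold of the main value, 35 moved by more and none that was past 2-fold changed sign. All 35 were ratios over WT, so the folds over WT were less steady than the pooled count shows. No ratio between the mutants moved by more than 1.5-fold, and none of Cidea did. The scale from all genes put the median log2 ratio of Ft1ko over WT at -0.21 and that from the most abundant genes at 0.34. No paired analysis was possible because the tables hold pooled means, and for the same reason no heart could be left out.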
